A study of Mus musculus with 8 samples.

Results

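Notch signaling in CD4 T cells was described here through 9 genes, taken by gene name from the 29924 gene names of the array: the receptors Notch1, Notch2 and Notch3, the receptor protease Adam10, the nuclear effectors Rbpj and Maml1, the targets Dtx1 and Hes1, and the inhibitor Numb. All 9 were on the array, 8 could be tested, and 7 were well above background on all 8 arrays. The cells came from peripheral lymph nodes (pLN) of a Foxp3-EGFP reporter strain, B6.Cg-Foxp3<tm1Mal>, of mixed sex and 8 to 14 weeks of age, immunized s.c. with KLH in alum. Naive CD4 T cells (GFP-PD1-GL7-), TFH cells (GFP-PD1hi GL7+), Treg cells (GFP+PD1-GL7-) and TFR cells (GFP+PD1hi, GL7+ or GL7-) were sorted as CD4+B220- cells at d12 or at d25, and each sort was 1 pool from 8 to 15 mice, so that every cell type had 2 arrays, 1 per day. There was no unimmunized group, EGFP under control of the Foxp3 locus set the Treg and TFR gates, and the GL7 gates of TFH and TFR cells were not the same.

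Notch receptors are membrane proteins that respond to ligands on neighbouring cells. Ligand binding lets ADAM10 and then the gamma-secretase complex cut the receptor, and its freed intracellular part enters the nucleus, where it joins the DNA-binding protein RBPJ and a Mastermind-like coactivator such as MAML1 and turns RBPJ from a repressor into an activator. Hes and Hey family repressors, Nrarp and, in lymphocytes, Dtx1 are classical targets. Numb counteracts the receptors by promoting their uptake and breakdown. In CD4 T cells the pathway is known for its part in thymic lineage choice and in helper cell differentiation, and in lymph nodes its ligands are displayed by stromal cells.

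Levels are given in RU, the relative expression strength used by the study, which is a normalized fluorescence intensity with a floor of 20 RU. Levels of one gene were compared between arrays only, since different probes do not share a scale. Between 18254 and 19867 of the 39429 probes were well above background on an array. The labels were checked against marker genes. Foxp3 stood at 48622 to 49260 RU in Treg, 37266 to 37521 RU in TFR, 285 to 358 RU in naive and 66 to 83 RU in TFH cells, and Bcl6, the repressor that defines follicular T cells, at 83017 to 112808 RU in TFH, 23711 to 33238 RU in TFR, 5749 to 6875 RU in naive and 5277 to 5392 RU in Treg cells. All 6 T cell markers were well above background on all 8 arrays. Of 9 B cell markers, Pax5 was at the floor on all 8 arrays and the summed level was highest on the d25 array of TFH cells (16523 RU, against 5668 to 10119 RU on the other 7). In sorted pools a lower level from fewer expressing cells cannot be told apart from less RNA per cell.

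Differences were tested in a linear model with cell type and day across 15747 genes (limma, Benjamini-Hochberg adjusted p under 0.05, called below). TFH and naive cells differed in 5 of the 8 tested Notch genes, 2 of them higher in TFH cells (Notch3 and Adam10) and 3 lower (Notch2, Dtx1 and Numb), where 46.7% of all tested genes were called in that comparison. TFR and Treg cells differed in 3, all lower in TFR cells (Notch2, Dtx1 and Numb), against 39.8% of all genes. TFR and TFH cells differed in 2 (Notch2 higher and Notch3 lower in TFR cells), against 22.2% of all genes. Treg and naive cells differed in Notch2, which was higher in Treg cells, against 9.89% of all genes. The change of TFR over Treg cells differed from that of TFH over naive cells for Notch3, against 8.52% of all genes, and no Notch gene passed the test between d25 and d12, against 0.0699% of all genes. Notch3 is in 3 of these counts and passed the filter on dim probes only through TFH cells. The counts lie near the background of each comparison and do not set the 8 genes apart from it. The median log2 difference of the 8 genes was -0.17 for TFH against naive and -0.35 for TFR against Treg cells, beside -0.07 and -0.08 over all tested genes. The p-values measure the spread between single pools taken at 2 days, and both days of TFH against naive and of TFR against Treg cells were measured within a slide, while TFR against TFH and Treg against naive cells crossed slides at d25.

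**Figure D1:**
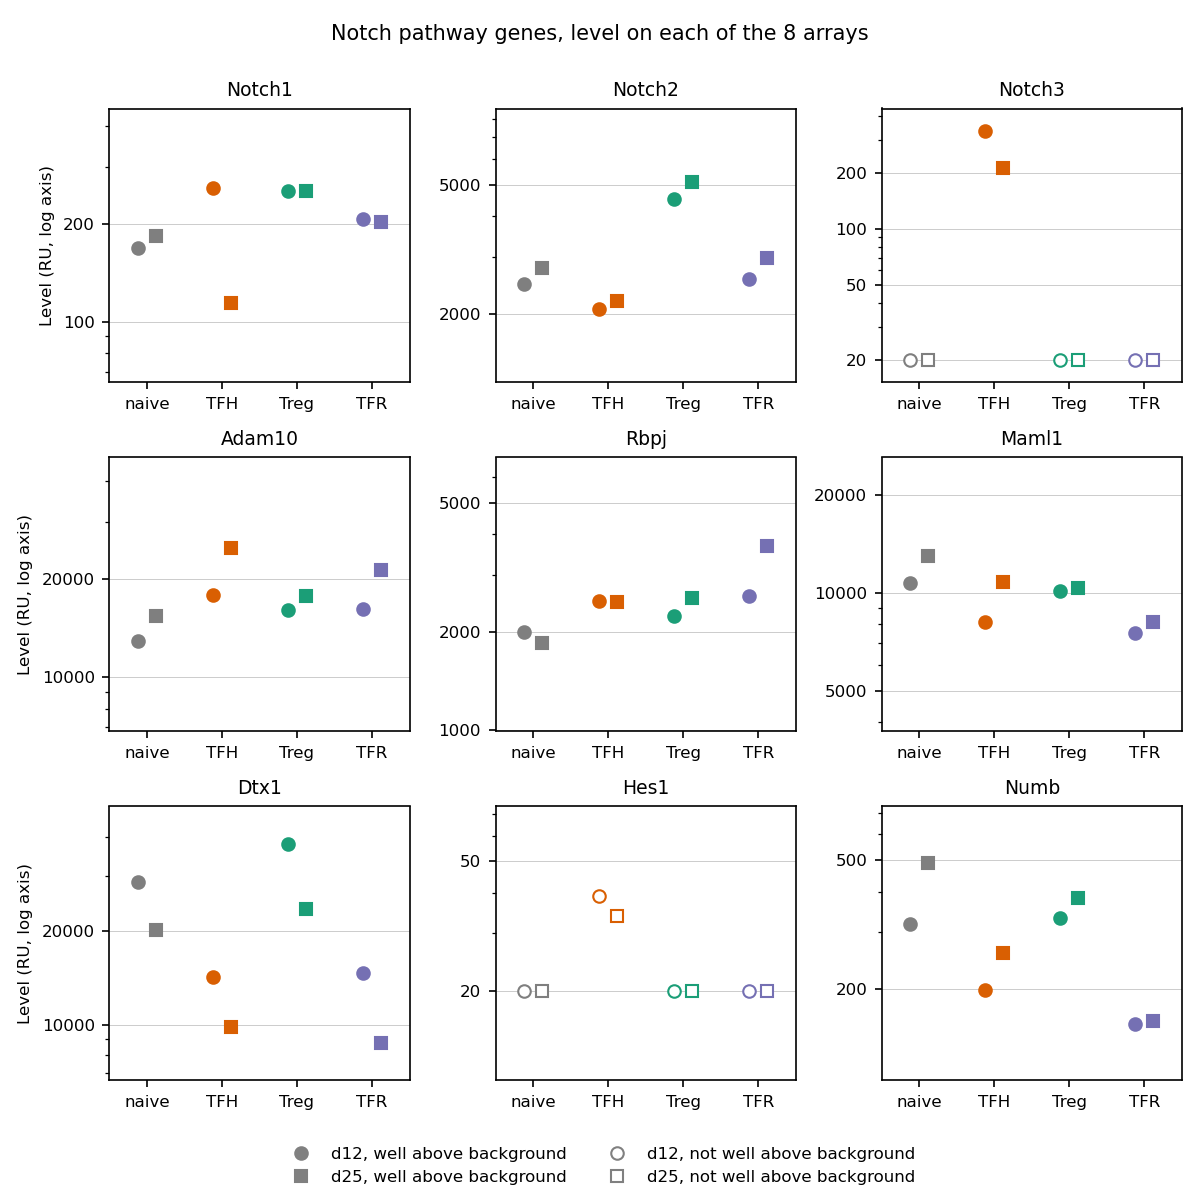
Level of the probe used for each of the 9 Notch pathway genes on each array (RU, log axis), by cell type and day; open symbols are not well above background. Notch3 is above background in both TFH arrays and at the floor of 20 RU in the other 6, and the Dtx1 levels of TFH and TFR cells lie below those of naive and Treg cells.

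Notch3 was the member with the clearest pattern. It measured 333 RU at d12 and 211 RU at d25 in TFH cells, and the floor of 20 RU on all 6 arrays of naive, Treg and TFR cells, where it was not well above background. Both TFH arrays therefore stood above all others and no other cell type had a measurable level. TFH cells were at least 4.54-fold higher than naive cells (adjusted p = 0.000322) and at least 5.71-fold higher than TFR cells (adjusted p = 0.000927). For this the dim side was set to the lowest signal of any probe that counted as well above background on its arrays (30 to 68 RU). That signal is no detection limit of a single probe: another Rbpj probe was not well above background at 84 RU in naive cells at d25. Folds given as at least, here and below, hold under this rule and are not strict limits. The fitted log2 difference of 3.73 ± 0.20 (SE) for TFH against naive cells depends on the floor and moved between 1.40 and 4.55 over the alternatives in which Notch3 was tested. Notch3 entered the test only through its TFH arrays, and with 6 arrays at 1 identical floor value the fit saw no spread in 3 of the 4 cell types, so that these p-values are no support beyond the levels themselves. With no filter on dim probes they were 0.00690 and 0.0171. Notch3 is widely used as a marker of pericytes and vascular smooth muscle. Of 5 stromal and endothelial markers, 2 or 3 were well above background in TFH cells and 2 in TFR cells, with summed levels of 2096 to 2241 RU in TFH, 1015 to 1127 RU in TFR, 3070 to 3418 RU in naive and 2672 to 3592 RU in Treg cells. Most of each sum was Pecam1, with 1775 and 2124 RU in TFH and 2927 and 3311 RU in naive cells. Cdh5 and Pdpn were at the floor on both TFH arrays. Col1a1 measured 48 to 197 RU in TFH and 195 to 288 RU in TFR cells, and was not well above background in naive and Treg cells. Col3a1 was well above background only on the d12 TFH array, at 84 RU. Whether stromal cells contributed to the Notch3 level was not tested.

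The promoter window of Notch3 is shown as that of the receptor with the largest difference. It was taken from RefSeq (build GRCm38.p6, chr17:32166841-32167140, minus strand), runs from 250 bases before to 50 after the transcription start and is printed 5′ to 3′. It was searched on both strands for TGGGAA, the core of the sequence bound by RBPJ, which capitals would mark.
Notch3 promoter: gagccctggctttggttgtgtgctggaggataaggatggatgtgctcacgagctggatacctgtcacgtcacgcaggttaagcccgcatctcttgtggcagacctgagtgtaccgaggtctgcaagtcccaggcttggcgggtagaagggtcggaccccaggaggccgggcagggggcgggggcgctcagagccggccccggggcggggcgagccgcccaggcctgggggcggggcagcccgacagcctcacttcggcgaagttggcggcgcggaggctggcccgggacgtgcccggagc
The window held no match, 70% of its bases were G or C and it had 25 CpG sites. By comparison, 25.6% of all 32851 windows of this length held the 6 letters on either strand. Windows were found for 8 of the 9 genes, all but Hes1, and of their 11 windows the 2 of Rbpj, which overlap, held the core. Its positions in the first began 149 bases before the start on the forward strand and 65 before it on the reverse strand.

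Notch2, the receptor that instructs marginal zone B cells and several splenic dendritic cells, was highest in Treg cells, with 4511 RU at d12 and 5119 RU at d25. Naive cells measured 2470 and 2779 RU, TFR cells 2567 and 2987 RU, and TFH cells 2072 and 2193 RU. The Treg arrays stood above all others, the TFH arrays below all others, and naive and TFR levels overlapped. Treg cells exceeded naive cells by 0.88 ± 0.08 on the log2 scale (1.83-fold, adjusted p = 0.00629), with 0.87 at d12 and 0.88 at d25. TFR cells were lower than Treg cells by 1.74-fold (log2 difference -0.80 ± 0.08, adjusted p = 0.00327). The smaller differences of TFH against naive cells (-0.30 ± 0.08, adjusted p = 0.0390) and of TFR against TFH cells (0.38 ± 0.08, adjusted p = 0.0364) went the same way at both days. Both of these calls were lost with any 1 of the 8 arrays left out, with adjusted p up to 0.182 and 0.185 over all alternatives, and the Treg against naive call was lost without any 1 of the 4 arrays it compares. With slide as a block these 3 calls were lost as well (adjusted p = 0.0679 for TFH against naive, 0.158 for TFR against TFH and 0.0519 for Treg against naive cells). The calls of TFH against naive and of TFR against TFH cells were also lost without a day term and with the mean over all probes.

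A further Notch2 probe, A_55_P1982793, was at the floor on all 8 arrays and gave no value. It is shown because the missing signal concerns 1 stretch of the gene (NCBI37, chr3:97951233-97951292, plus strand), whereas the probe with signal (A_52_P289213) lies further downstream on the same strand. The 60 bases have a reading frame without a stop codon, and their place in the coding part was not checked against an annotation of that build, here and for the probes below.
A_55_P1982793: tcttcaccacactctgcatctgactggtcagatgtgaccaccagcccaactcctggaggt

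Notch1, the receptor that commits progenitors to the T cell lineage, had low levels and no called difference with the probe used (A_55_P2047168). It measured 169 and 184 RU in naive, 258 and 114 RU in TFH, 253 and 252 RU in Treg, and 207 and 202 RU in TFR cells (d12, then d25). TFH cells held both the highest and the lowest of the 8 values, with a drop of 1.18 on the log2 scale from d12 to d25, while the other cell types moved by 0.13 or less. TFH minus naive was 0.61 at d12 and -0.70 at d25, which left a fitted log2 difference of -0.04 with a 95% interval from -0.94 to 0.85 (adjusted p = 0.931).

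The other Notch1 probe, A_55_P2171897, gave another picture. It measured 478 and 186 RU in naive, 180 and 89 RU in TFH, 256 and 114 RU in Treg, and 271 and 97 RU in TFR cells, all well above background, and was lower at d25 than at d12 in every cell type. Read from this probe, TFH cells were below naive cells by 1.24 ± 0.14 on the log2 scale (adjusted p = 0.00246) and Treg cells by 0.80 ± 0.14 (adjusted p = 0.0305). The d25 minus d12 difference was -1.26 ± 0.10 (adjusted p = 0.0503). The probes thus differed on Notch1, and no direction is given for it. The 60 bases of this probe (NCBI37, chr2:26319440-26319499, minus strand), upstream of the probe used, have a reading frame without a stop codon and are shown for this difference.
A_55_P2171897: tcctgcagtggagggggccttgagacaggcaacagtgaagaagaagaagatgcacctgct

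**Figure D2:**
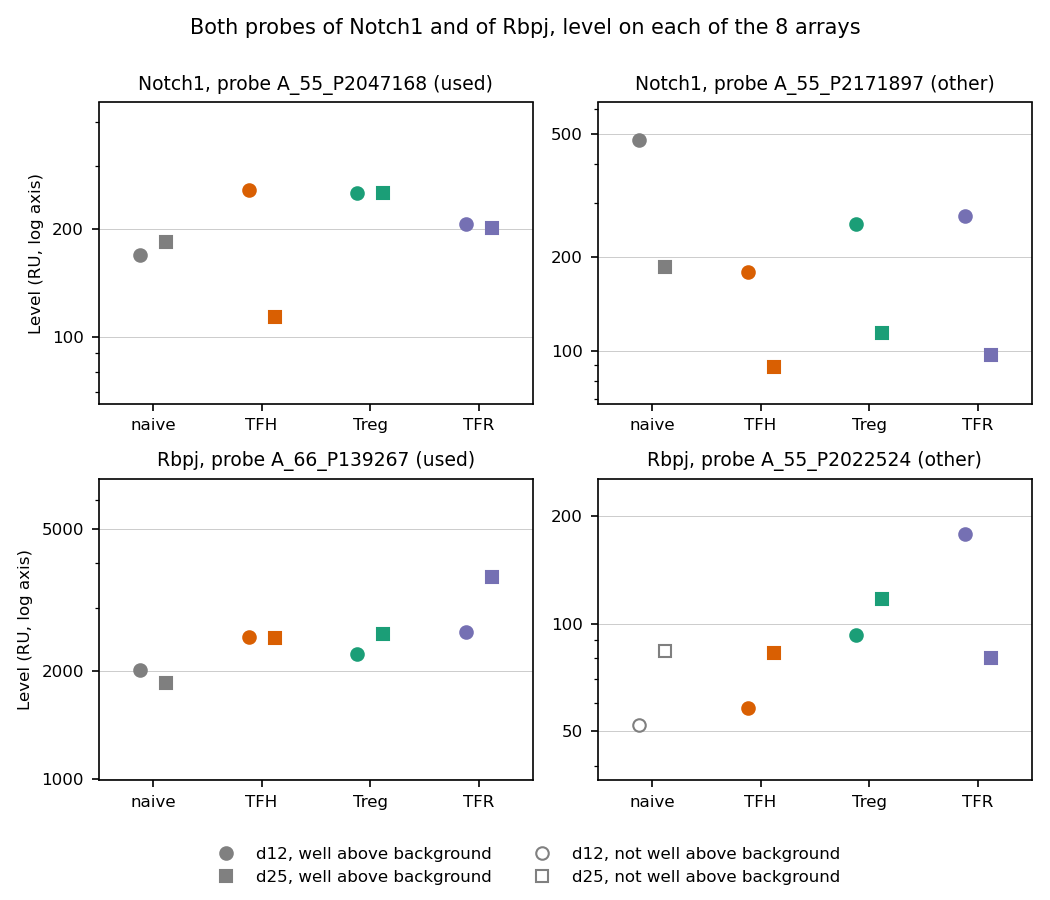
Level of each of the 2 probes of Notch1 and of Rbpj on each array (RU, log axis), by cell type and day; open symbols are not well above background. The Notch1 probe used puts TFH cells at 258 and 114 RU, whereas the other one falls from d12 to d25 in all 4 cell types.

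Adam10, which encodes the protease that makes the first cut of the bound receptor, was well above background everywhere. It measured 12940 and 15470 RU in naive, 17875 and 24943 RU in TFH, 16088 and 17728 RU in Treg, and 16162 and 21403 RU in TFR cells, in the order d12, d25. Within each day TFH cells were the highest and naive cells the lowest of the 4 cell types. TFH cells exceeded naive cells by 0.58 ± 0.11 on the log2 scale (1.49-fold, adjusted p = 0.0138), with 0.47 at d12 and 0.69 at d25. The call was lost without a day term, without either naive array or without the d25 TFH array. The log2 difference was 0.47 to 0.69 over all alternatives. TFR and Treg cells differed by 0.14 ± 0.11 (95% interval from -0.16 to 0.43, adjusted p = 0.375). All 4 cell types were higher at d25, by 0.14 to 0.48.

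Rbpj, the DNA-binding protein on which all Notch receptors converge, measured 2007 and 1856 RU in naive, 2497 and 2469 RU in TFH, 2234 and 2536 RU in Treg, and 2574 and 3669 RU in TFR cells. Naive cells had the lowest values on both days and TFR cells the highest. None of the differences was called. TFH minus naive was 0.36 ± 0.17 (adjusted p = 0.142) and TFR minus Treg 0.37 ± 0.17 (adjusted p = 0.147), with 95% intervals from -0.08 to 0.81 and from -0.07 to 0.81. Another probe with an open reading frame, A_55_P2022524 (NCBI37, chr5:54044777-54044836, plus strand), measured 52 to 178 RU, was not well above background in naive cells and gave no called difference either. Its sequence is shown beside that result.
A_55_P2022524: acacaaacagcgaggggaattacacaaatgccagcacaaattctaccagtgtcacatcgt

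Maml1, the coactivator of the nuclear Notch complex, measured 10691 and 12955 RU in naive, 8166 and 10792 RU in TFH, 10163 and 10354 RU in Treg, and 7552 and 8117 RU in TFR cells. TFR cells were the lowest on both days. Maml1 missed the threshold in TFR against Treg cells (-0.39 ± 0.12, adjusted p = 0.0575) and in TFH against naive cells (-0.33 ± 0.12, adjusted p = 0.0822). The first difference was called in 6 of the 19 alternatives fitted and the second in 2.

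Dtx1, which encodes the E3 ubiquitin ligase Deltex1 and is a Notch target linked to T cell anergy, had the largest fall among the members. It measured 28616 and 20016 RU in naive, 37832 and 23435 RU in Treg, 14247 and 9815 RU in TFH, and 14570 and 8738 RU in TFR cells. All 4 follicular values lay below all 4 others, with 14570 RU as the highest follicular and 20016 RU as the lowest other value. TFH cells were 2.02-fold below naive cells (log2 difference -1.02 ± 0.10, adjusted p = 0.00162) and TFR cells 2.64-fold below Treg cells (-1.40 ± 0.10, adjusted p = 0.00128). The differences were -1.01 and -1.03 for the first and -1.38 and -1.42 for the second at d12 and d25. The TFR against Treg call held in all alternatives run, and the TFH against naive call in all but the fit without a day term (adjusted p = 0.0838). TFR and TFH cells differed by -0.07 ± 0.10 (95% interval from -0.32 to 0.19).

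All 4 cell types had less Dtx1 at d25 than at d12, by 0.52 to 0.74 on the log2 scale, which did not pass the test (-0.62 ± 0.07, adjusted p = 0.0655). Day and slide cannot be told apart there. The Dtx1 promoter window, shown for the member with the largest fall (RefSeq, GRCm38.p6, chr5:120711620-120711919, minus strand), held no TGGGAA on either strand.
Dtx1 promoter: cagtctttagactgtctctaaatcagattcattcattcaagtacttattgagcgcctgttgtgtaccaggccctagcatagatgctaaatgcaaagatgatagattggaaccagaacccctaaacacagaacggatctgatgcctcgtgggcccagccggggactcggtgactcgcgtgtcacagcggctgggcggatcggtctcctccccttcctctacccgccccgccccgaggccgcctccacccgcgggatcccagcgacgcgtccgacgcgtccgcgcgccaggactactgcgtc

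Hes1, a repressor gene that Notch activates in many tissues, did not reach the background threshold on any of the 8 arrays and was not tested. TFH cells had 39 and 34 RU, and all 6 other arrays were at the floor of 20 RU.

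Numb, whose product binds and removes Notch receptors from the membrane, was lower in both follicular cell types. It measured 317 and 489 RU in naive, 331 and 383 RU in Treg, 199 and 259 RU in TFH, and 157 and 160 RU in TFR cells. Both TFR arrays were the lowest of the 8, and both TFH arrays lay between them and all naive and Treg arrays. TFR cells were 2.25-fold below Treg cells (log2 difference -1.17 ± 0.16, adjusted p = 0.00641) and TFH cells 1.74-fold below naive cells (-0.80 ± 0.16, adjusted p = 0.0148). TFR minus TFH was -0.52 ± 0.16 (adjusted p = 0.0832). The TFR against Treg call was lost without the d12 Treg array. The TFH against naive call was lost with no filter on dim probes, without the d25 naive array or without either TFH array. Its log2 difference was -1.01 to -0.50 over all alternatives. The Numb result rests on 1 probe (NCBI37, chr12:85136400-85136459, minus strand), which also has an open reading frame and is shown for that reason.
A_52_P26216: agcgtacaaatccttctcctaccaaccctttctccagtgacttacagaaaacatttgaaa

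**Figure D3:**
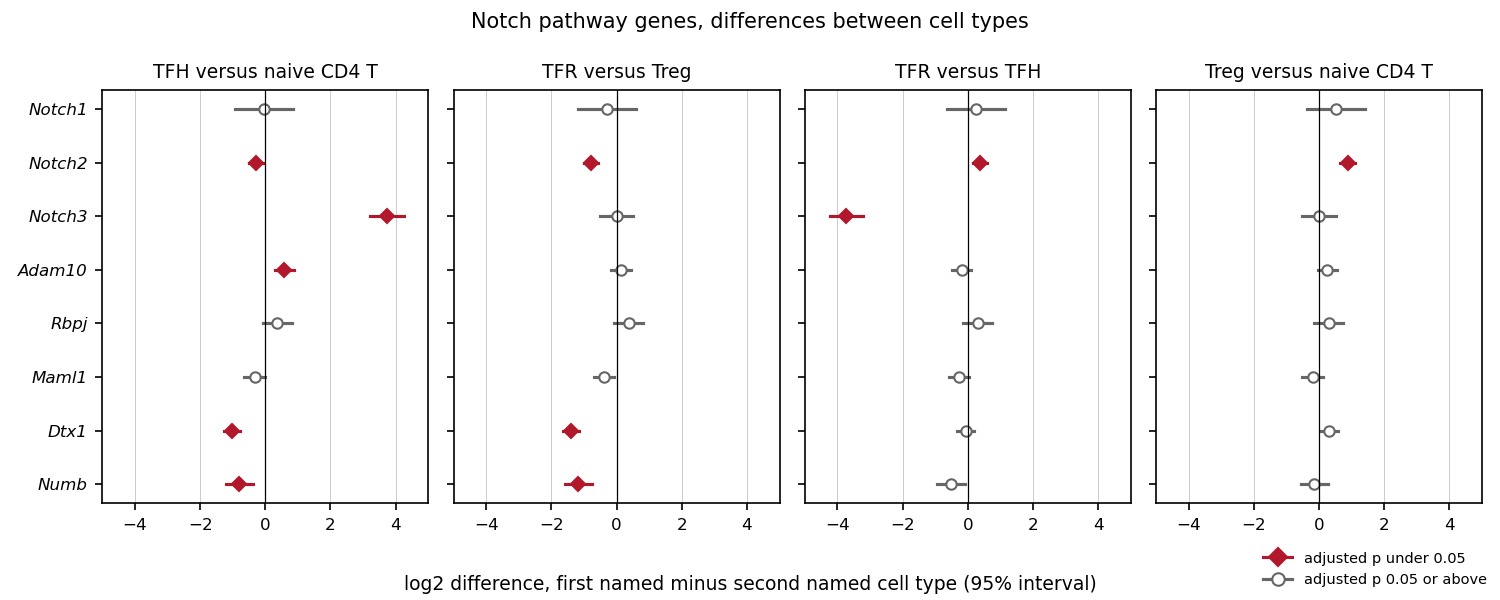
Fitted log2 differences of the 8 tested Notch pathway genes in 4 comparisons, with 95% intervals as lines; filled diamonds have an adjusted p under 0.05. Dtx1 and Numb lie left of 0 in TFH against naive and in TFR against Treg cells, and the Notch3 values of 3.73 and -3.73 rest on arrays at the floor.

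The wider pathway was followed through 54 further genes, of which 53 were on the array, 43 were tested and 34 were well above background on all arrays. TFH against naive cells gave 17 calls, 11 higher and 6 lower in TFH cells, where 46.7% of all tested genes were called. TFR against Treg cells gave 14 (6 higher and 8 lower), against 39.8% of all genes, TFR against TFH cells 7 (2 higher and 5 lower), against 22.2%, and Treg against naive cells 1, against 9.89%. None of these counts sets the list above its background. The difference between both follicular changes gave 4 calls, against 8.52% of all genes, and d25 against d12 gave none by limma, against 0.0699%. At an unadjusted p under 0.05 there were 14 genes for d25 against d12. That count has no share of all genes beside it, and nothing is read from it. The median log2 differences of the 43 genes were -0.08 for TFH against naive, -0.12 for TFR against Treg and -0.18 for TFR against TFH cells, beside -0.07, -0.08 and -0.02 over all tested genes.

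Target genes of the Hes and Hey family carried the largest differences. Of 6 targets on the wider list 4 were tested, and 3 were called higher in TFH than in naive cells and none lower. Of all 15747 tested genes, 3299 were called higher and 4048 lower in that comparison. Heyl, among the 3, was tested only because its TFH arrays were bright. Dtx1, called lower, and Hes1, not tested, are targets outside these 6. With only 4 genes tested, this count cannot set the targets apart from the background. Hes5 measured 5681 and 4903 RU in TFH, 1048 and 935 RU in TFR, 408 and 351 RU in Treg, and 414 and 253 RU in naive cells. The TFH arrays stood above both TFR arrays and these above all others. Hes5 rose by 4.03 ± 0.16 on the log2 scale in TFH against naive cells (adjusted p = 0.000191) and by 1.39 ± 0.16 in TFR against Treg cells (adjusted p = 0.00423), and TFR cells remained below TFH cells by 2.41 ± 0.16 (adjusted p = 0.00158). These 3 calls held in all alternatives run.

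Hey1, a related repressor gene, measured 2271 and 941 RU in TFH, 1518 and 718 RU in TFR, and 180 and 104 RU in Treg cells, whereas naive cells had 36 and 30 RU and were not well above background. TFH and TFR arrays overlapped and all 4 stood above the others. The dim side was set as for Notch3, here and for Heyl and Nrarp below. TFH cells were then at least 25.0-fold above naive cells (adjusted p = 0.000254) and Treg cells at least 2.34-fold above naive cells (adjusted p = 0.0133). TFR cells exceeded Treg cells by 2.93 ± 0.26 on the log2 scale (adjusted p = 0.00218). The Treg against naive call was lost in 6 of the 18 alternatives fitted (adjusted p up to 0.176), among them those without either Treg array. Heyl was well above background in TFH cells only, with 82 and 176 RU, and stood at 20 to 29 RU elsewhere. It was at least 2.06-fold higher in TFH than in naive cells (adjusted p = 0.00592) and at least 2.59-fold higher than in TFR cells (adjusted p = 0.0168). As for Notch3, it was tested only because its TFH arrays were bright, and the second call was lost with no filter on dim probes, with slide as a block and without either TFR array. Nrarp, a feedback inhibitor, went the other way: it measured 129 and 245 RU in Treg cells and was not well above background in TFR cells (43 and 37 RU), a difference of at least 3.83-fold (adjusted p = 0.0214). It was tested only through its Treg arrays, and the call was lost with no filter on dim probes and without any 1 of these 4 arrays. Hey2 and Ptcra were at the floor on all 8 arrays.

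**Figure D4:**
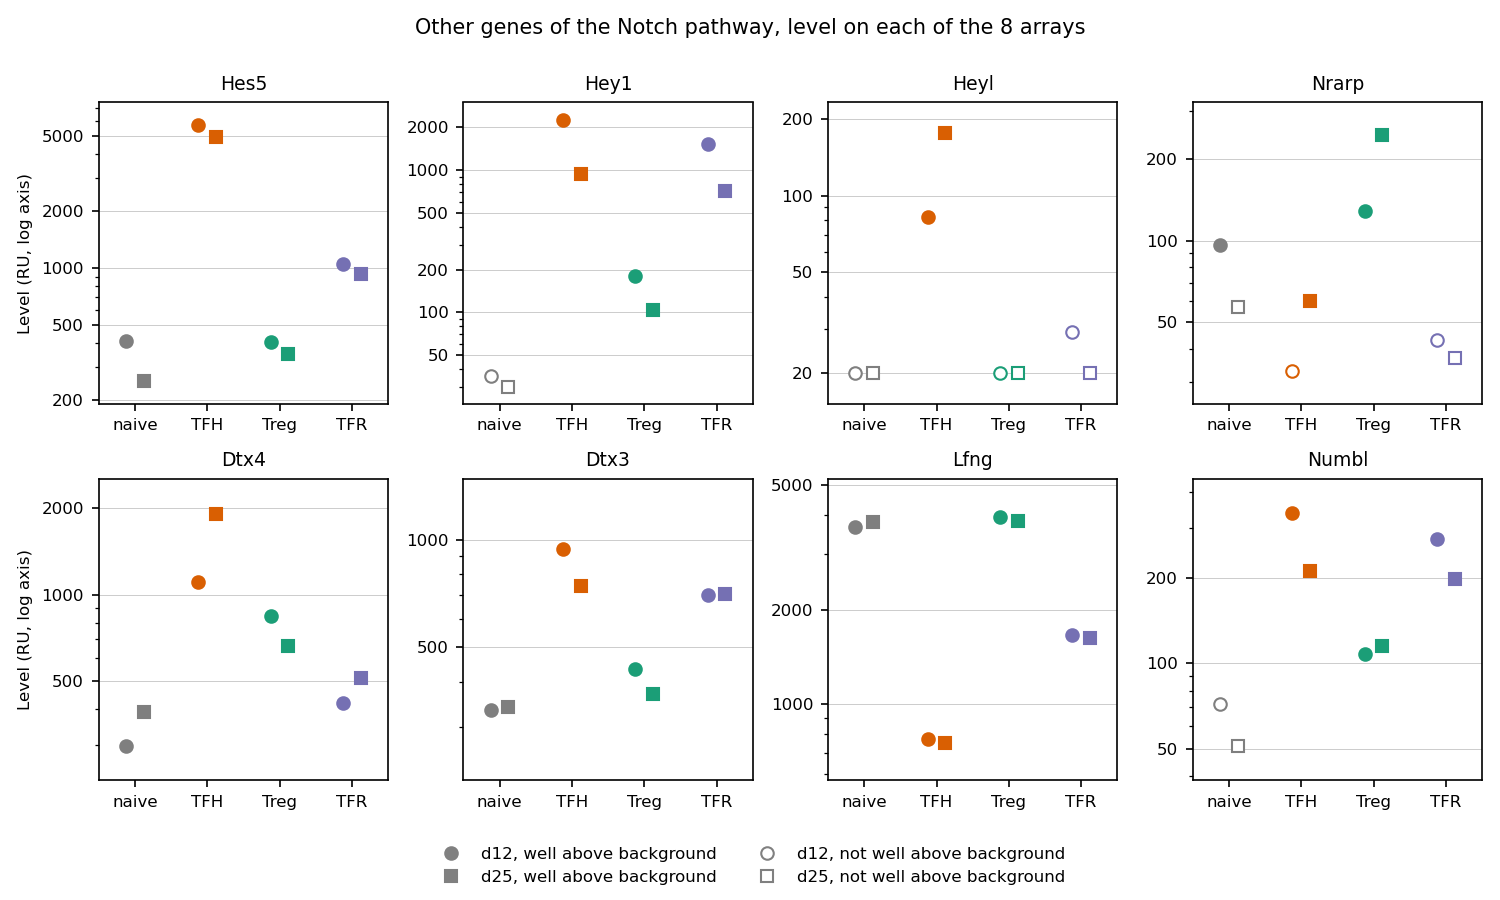
Level of 8 further Notch pathway genes on each array (RU, log axis), by cell type and day; open symbols are not well above background. Hes5 steps down from TFH over TFR to Treg and naive cells, while Lfng steps up from TFH over TFR to naive and Treg cells.

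Deltex family ligases, relatives of Dtx1, moved in different directions. Dtx4 measured 1109 and 1915 RU in TFH, 843 and 662 RU in Treg, 421 and 514 RU in TFR, and 298 and 392 RU in naive cells. It was 2.09 ± 0.27 higher on the log2 scale in TFH than in naive cells (adjusted p = 0.00389) and lower in TFR than in TFH cells (log2 difference -1.65 ± 0.27, adjusted p = 0.0167). The latter call was lost with slide as a block (adjusted p = 0.0627) and with no filter on dim probes. It was also lost without the d25 TFH array and without either TFR array. Dtx3 rose in both follicular comparisons, by 1.30 ± 0.13 (adjusted p = 0.00166) and 0.81 ± 0.13 (adjusted p = 0.00914). Dtx3l, which encodes a partner of an ADP-ribosyltransferase, was lower in both (-0.57 ± 0.08, adjusted p = 0.00466, and -0.47 ± 0.08, adjusted p = 0.0104). The second calls of Dtx3 and Dtx3l were lost without either Treg array and without the d25 TFR array. That of Dtx3l was also lost without the d12 TFR array and without a day term.

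Among 5 genes for receptor glycosylation, Lfng stood out. This enzyme, Lunatic fringe, adds sugars to the Notch receptors that favour Delta over Jagged ligands. Lfng measured 3673 and 3795 RU in naive, 3954 and 3828 RU in Treg, 1654 and 1625 RU in TFR, and 772 and 753 RU in TFH cells. The 2 arrays of each follicular cell type nearly coincided and the groups did not overlap, apart from naive and Treg cells, whose levels lay side by side. TFH cells were lower than naive cells by 2.29 ± 0.08 (log2 difference -2.29, adjusted p = 0.000163), TFR cells lower than Treg cells by 1.25 ± 0.08 (log2 difference -1.25, adjusted p = 0.00106) and higher than TFH cells by 1.10 ± 0.08 (adjusted p = 0.00191), each in all alternatives run. Poglut1, which adds glucose to the receptors, was lower in TFR than in Treg cells (-0.44 ± 0.11, adjusted p = 0.0308). This call was lost with no filter on dim probes and without any 1 of these 4 arrays.

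The promoter windows of Hes5 and Lfng are shown because these genes changed most clearly in opposite directions while both windows hold the RBPJ core, in capitals. That of Hes5 (RefSeq, GRCm38.p6, chr4:154960673-154960972, plus strand) holds it 226 bases before the start on the reverse and 82 before it on the forward strand, and that of Lfng (chr5:140607091-140607390, plus strand) 135 bases before it on the reverse and 108 on the forward strand.
Hes5 promoter: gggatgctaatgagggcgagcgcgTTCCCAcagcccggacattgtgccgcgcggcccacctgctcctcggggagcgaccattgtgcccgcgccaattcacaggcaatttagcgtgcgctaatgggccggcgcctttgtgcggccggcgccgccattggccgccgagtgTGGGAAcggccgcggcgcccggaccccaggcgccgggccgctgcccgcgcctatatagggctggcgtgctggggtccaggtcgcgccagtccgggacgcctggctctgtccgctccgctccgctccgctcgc
Lfng promoter: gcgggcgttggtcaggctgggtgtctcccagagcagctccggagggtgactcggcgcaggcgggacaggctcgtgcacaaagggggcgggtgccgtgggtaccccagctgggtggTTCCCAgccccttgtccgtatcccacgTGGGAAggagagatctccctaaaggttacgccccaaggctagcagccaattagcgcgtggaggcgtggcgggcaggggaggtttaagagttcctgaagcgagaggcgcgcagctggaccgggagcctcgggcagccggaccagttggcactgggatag
Of the 55 windows found for 43 genes of the wider list, 17 held the core, or 30.9%, beside 25.6% of all windows. The matches describe letters only, and none of the deposited measurements reads RBPJ binding.

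Of 6 tested protease genes, 3 were higher and 1 was lower in TFH than in naive cells, beside 46.7% of all tested genes called. Psenen, 1 of the 3, was lost in 12 of 19 alternatives and changed sign in 1. Psen2, a catalytic subunit of gamma-secretase, rose by 0.88 ± 0.12 in TFH against naive (adjusted p = 0.00458) and by 0.93 ± 0.12 in TFR against Treg cells (adjusted p = 0.00541), the second call being lost without the d12 TFR array (adjusted p = 0.0504). It measured 26610 and 21290 RU in TFH and 29127 and 22371 RU in TFR cells, against 11248 to 15925 RU in naive and Treg cells. Aph1b, another subunit, was at least 3.44-fold higher in TFH than in naive cells, with the dim side set as for Notch3 (adjusted p = 0.00459). It was higher in TFR than in Treg cells by 1.63 ± 0.33 (adjusted p = 0.0181), a call lost with no filter on dim probes and without either TFR array. Its close paralog Aph1c has no probe under its own name on the array, and cross-hybridization between them was not tested.

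Numbl, a relative of Numb, moved against it. It measured 338 and 212 RU in TFH and 275 and 198 RU in TFR cells, while Treg cells had 108 and 115 RU and naive cells, not well above background, 72 and 51 RU. TFH cells were 4.41-fold above naive cells in the fit (adjusted p = 0.00145), a ratio of measured signals and not a bound. TFR cells exceeded Treg cells by 1.06 ± 0.20 (adjusted p = 0.0147), a call lost with no filter on dim probes and without either TFR array. Itch, a ubiquitin ligase that targets Notch, was lower in TFR than in Treg (-0.33 ± 0.09, adjusted p = 0.0409) and than in TFH cells (-0.39 ± 0.09, adjusted p = 0.0405), calls that were lost in 9 and 12 of 19 alternatives.

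Of 7 nuclear effectors, the acetyltransferase genes Kat2a and Kat2b were lower in both follicular cell types. Kat2b fell by 1.74 ± 0.15 in TFR against Treg cells (log2 difference -1.74, adjusted p = 0.00192) and by 0.74 ± 0.15 in TFH against naive cells (log2 difference -0.74, adjusted p = 0.0138). The latter call was lost with no filter on dim probes, without a day term and without the d12 array of either cell type. Kat2a fell by 0.91 ± 0.11 in TFH against naive (log2 difference -0.91, adjusted p = 0.00291) and by 0.78 ± 0.11 in TFR against Treg cells (log2 difference -0.78, adjusted p = 0.00631, lost without the d25 TFR array). Among 7 tested corepressors, Cir1 (0.57 ± 0.13, adjusted p = 0.0229) and Spen (0.37 ± 0.11, adjusted p = 0.0416) were higher in TFH than in naive cells, and Hdac2 was lower in TFR than in Treg cells (-1.01 ± 0.20, adjusted p = 0.0170), with the d12 TFR array not well above background. Each of these 3 calls was lost without 1 or more of the arrays compared.

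Ligand genes were mostly not detected. Of 7, Dll4 and Dlk1 were at 20 RU, rounded, on all 8 arrays, Dll1, Jag1 and Jag2 were each well above background on 1 array, and Dll3 and Dlk2 were tested. Dll1 was measured on the d25 TFH array (118 RU), that with the highest B cell marker sum. Dll3, at 79 RU or less on every array, was well above background on both arrays in TFH cells alone. It counts among the calls for TFH against naive cells, but no direction or fold is given, since neither naive array was well above background. The receptor Notch4, at 20 to 126 RU, and the 3 tested genes for ligand endocytosis had no call in any comparison.

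The follicular changes with and without Foxp3 were compared in 1 term, the change of TFR over Treg cells minus that of TFH over naive cells. Notch3 differed by -3.73 ± 0.28 (adjusted p = 0.00553), again a value set by the floor on 6 arrays, and the call was lost where no filter on dim probes was used (adjusted p = 0.0516). Of the wider list, Hes5 (-2.64 ± 0.23, adjusted p = 0.00741), Dtx4 (-2.78 ± 0.38, adjusted p = 0.0207) and Hey1 (-2.54 ± 0.36, adjusted p = 0.0223) rose less, or for Dtx4 did not rise, along the Foxp3+ axis, and Lfng fell less (1.05 ± 0.11, adjusted p = 0.0123). The Hey1 value again includes naive arrays that were not well above background, it ranged from -2.94 to -1.08 over the alternatives, and its call was lost with slide as a block (adjusted p = 0.0604). Each of the 4 calls was lost without the d12 TFR array, among others. Notch2 (-0.50 ± 0.12, adjusted p = 0.0743), Dtx1 (-0.38 ± 0.14, adjusted p = 0.177) and Numb (-0.37 ± 0.23, adjusted p = 0.380) had negative values that did not pass the test.

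Between d12 and d25 no member passed the test by limma, against 0.0699% of all genes. An unadjusted p under 0.05 was found for 4 of 8. That count has no share of all genes beside it, and no day effect is read from it. Adam10 was 0.32 ± 0.08 higher (adjusted p = 0.0997), Notch2 0.16 ± 0.06 higher (adjusted p = 0.157), Numb 0.31 ± 0.11 higher (adjusted p = 0.161) and Dtx1 lower as given above. Each of these 4 genes had the same sign in all 4 cell types, though Numb changed by only 0.02 in TFR cells.

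The genes with the pattern most like that of a member over the 8 arrays were found by the root mean square difference of gene-centred log2 values, as a description, since all share the same arrays. Notch2 ran closest to Camkk1 (0.11, r = 0.99), a kinase of the calmodulin pathway. Notch3 ran closest to Id1 (0.39, r = 0.99), an inhibitor of basic helix-loop-helix factors. Numb ran closest to Galnt4 (0.12, r = 0.98), Rbpj to Phyh (0.10, r = 0.94), Maml1 to Nufip2 (0.06, r = 0.97) and Adam10 to Fundc1 (0.07, r = 0.97). For Notch1, whose probes differed, Kctd18 was the closest named gene (0.17, r = 0.92).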

How the data were processed

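Gene expression was measured on 8 one-color Agilent arrays with 39429 probes in 4 spots each. The authors extracted the deposited intensity values of the green channel with Feature Extraction 10.7.3.1, which subtracts background. Their table was quantile normalized, scaled to 1500 at the upper quartile and floored at 20. Starting from the deposited spots, flagged and outlying spots were left out here, spots of a probe were averaged as the geometric mean, and the same normalization, scaling and floor were applied before log2. The array values correlated with the deposited table at r = 0.999 on each array. A probe was well above background on an array if more than 50% of its retained spots were flagged so by the scanner software.

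Where a gene had several probes, that of highest mean log2 level was used and the others served as a check. Tests ran over the 15747 genes with a value on all 8 arrays and a signal well above background for d12 and d25 of at least 1 cell type, with limma 3.58.1 and with cell type and day in the model, leaving 3 residual degrees of freedom. The probe coordinates are those of the deposited files (NCBI37), and the promoter windows are RefSeq sequences of GRCm38.p6. The day is the replicate number of each array, so the day term is also the replicate block. The fit was also run on simulated data that had no floor, no day or slide effect and changes in TFH cells only. That run does not bear on genes at the floor, and nothing is read from it.

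The 9 genes, the wider pathway list and the marker lists were chosen with earlier results of these data known. Values are named for all 9 genes, for the called genes of the wider list that were among the 2 of their role with the largest difference in a comparison, and for the closest patterns among 13283 other genes well above background on all arrays. Some results of these lists are not reported here, and Peyer's patch cells were not analysed here. The number of arrays, 1 for each cell type and day, limits the precision. Alternatives were other scaling, background correction, floor, filter, probe and model settings and leaving out each array.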

Additional observations from a re-analysis of the deposited data

Results flagged for a closer look

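Notch3 is the member whose follicular change differed between Foxp3- and Foxp3+ cells by the test of that difference itself (log2 difference -3.73 ± 0.28, adjusted p = 0.00553 by limma). It was well above background on both TFH arrays, at 333 and 211 RU, and at the floor of 20 RU on both TFR arrays and on the 4 naive and Treg arrays, so the size of the difference depends on the floor, the fit saw no spread in 3 cell types, and the gene was tested only through its TFH arrays. With no filter on dim probes the call was lost (adjusted p = 0.0516). The value was -4.06 within d12 and -3.40 within d25.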

How the results depend on the processing

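The count of called Notch pathway genes kept within 1.5 times its value in all 19 alternatives for TFR against Treg cells (2 to 4, from 3). For TFH against naive cells it went from 5 to 2 without a day term, that is with no replicate block, and to 2 to 4 with 1 array left out. For TFR against TFH cells it went from 2 to 1 with only genes well above background on all arrays, with the mean over probes, with slide as a block and without a day term, and to 1 to 2 with 1 array left out. For Treg against naive cells it went from 1 to 0 with slide as a block and to 0 to 2 with 1 array left out. The difference between both follicular changes went from 1 to 0 with no filter on dim probes and with only genes well above background on all arrays, where Notch3 was not tested, and stayed at 1 to 1 with 1 array left out. The count for d25 against d12 went from 0 to 1 with normexp background correction and with only genes well above background on all arrays, and to 2 with an intensity trend. The cause of these moves was not tested, beyond the smaller number of arrays or genes. Notch1 in TFH against naive cells ranged from -0.65 to 0.56 with 1 array left out, both ends called, without the d12 and without the d25 TFH array, and was a called -0.64 with the mean over probes, and its other probe turned it to -0.80 in Treg against naive cells and to 1.16 in the difference between follicular changes. Psenen turned from 0.47 to -0.058 in TFH against naive cells without quantile normalization. Counts over the wider list ranged from 11 to 20 around 17 in TFH against naive, from 5 to 18 around 14 in TFR against Treg and from 2 to 10 around 7 in TFR against TFH cells. Only probes well above background carry a level. The folds of Notch3 and Heyl therefore depend on the rule for the dim side, and Hes1 and most ligand genes were not tested.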
